A study of Caenorhabditis elegans with 6 samples.

Results

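Saposin-like proteins of Caenorhabditis elegans, encoded by spp genes, were followed in RNA sequencing of whole worms of 2 mutant strains. The 10 genes described are spp-1, spp-2, spp-3, spp-5, spp-8, spp-9, spp-10, spp-12, spp-14 and spp-18. They were taken by name from the gene tables, which list 46245 loci and 23 genes named spp, and each of the 10 names was found. They were chosen by their FPKM in these same libraries: some are listed at 0 in 1 of the strains, and others are very abundant and lower there. The strain contrast of the 10 is therefore a description of the values that chose them.

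DCL289 carries ptr-8(mkc18) together with eat-2(ad465) and acs-20(tm3232), and it is set against DCL33, which carries eat-2(ad465) and acs-20(tm3232) alone. Each strain had 3 libraries of total RNA from animals grown at 20 °C and collected late in the fourth larval stage. Both strains carry the eat-2 and acs-20 alleles, and no strain without them was analysed here. Worms without eat-2, a nicotinic receptor gene of pharyngeal muscle, pump slowly and are a model of dietary restriction. The product of acs-20 activates fatty acids by joining them to coenzyme A, and ptr-8 belongs to the patched-related genes. The comparison addresses the RNA differences that go with the ptr-8 mutation in slow-feeding worms. The labels do not say that the 3 libraries of a strain came from separate cultures, so every spread given here may be technical. ptr-8 was at 4.50, 5.12 and 5.71 scaled FPKM in DCL289, against 24.0, 23.4 and 18.03 in DCL33, so the libraries separate by label at the targeted gene. What part of the gene mkc18 alters is not given in the sources used here.

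Saposin-like proteins are small bundles of helices held by disulfide bonds that bind and disturb lipid membranes. In vertebrates the saposins, cut from prosaposin, present sphingolipids to lysosomal hydrolases. In C. elegans several members form pores in bacterial membranes and are called caenopores, and many are made in the intestine, where the worm kills the bacteria that it eats.

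Levels are FPKM, fragment numbers corrected for transcript length and library size, as deposited by the authors and divided by a factor per library of 0.872 to 1.33 (called scaled FPKM). Since FPKM are per length, levels of different genes can be set side by side. Between 14858 and 15408 loci per library reached an FPKM of 1. The files give no fragment counts. The authors' interval around each FPKM had a median half-width of 7.44% to 12.9% of the value per library, over 7047 well covered genes, and does not cover the spread between libraries. DCL289 replicate 2 needed the largest factor, 1.33.

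The pore formers split by level and by strain. spp-5 encodes caenopore-5, an intestinal protein that permeabilises bacterial membranes, and was the most abundant of the 10. It lies on chromosome X at 7319933 to 7320384, on the minus strand, with 1 annotated transcript of 2 exons. Its level was 5913, 4006 and 5187 scaled FPKM in DCL289, against 12105, 13880 and 13904 in DCL33. All 3 DCL289 libraries lay below all 3 DCL33 libraries, and the DCL289 mean was 37.9% of the DCL33 mean (5035 ± 962 and 13297 ± 1032, SD, n = 3 each). These are bulk samples of whole worms, so fewer cells of a type and less RNA per cell cannot be told apart.

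spp-3, whose product also has pore-forming and antimicrobial activity and is found in the intestine, lies near spp-5 on X (7314883 to 7315353). It was at 1048, 555 and 1397 scaled FPKM in DCL289, against 2175, 3378 and 3283 in DCL33. The groups did not overlap, but the DCL289 libraries differed among themselves more than those of spp-5 did, with a coefficient of variation of 42.3% in DCL289 and 22.7% in DCL33. The coefficients for spp-5 were 19.1% in DCL289 and 7.76% in DCL33.

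spp-1 encodes an intestinal antibacterial protein and is a known target of the insulin-pathway factor DAF-16. It lies on chromosome III at 10355118 to 10355668. It was at 363, 148 and 406 scaled FPKM in DCL289, against 261.2, 418 and 375 in DCL33. The groups overlapped, and the log2 difference of -0.30 (SE 0.41) was smaller than its own error. Without DCL289 replicate 2, the low library, the difference was 0.16. spp-1 overlaps a gene on the other strand, T07C4.3, listed at 29.0 to 53.1 deposited FPKM over the 6 libraries. With no statement on strand in the sources, the reads of T07C4.3 and spp-1 cannot be told apart.

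spp-12 encodes a caenopore made in pharyngeal neurons and linked to resistance to Bacillus thuringiensis. It lies on chromosome V at 13889869 to 13890319, on the plus strand. It is listed at 0 in the 3 DCL289 libraries, against 56.1, 50.9 and 77.0 scaled FPKM in DCL33. In DCL33 the authors' interval on the deposited value ran from 47.3 to 70.4 in replicate 1, from 38.7 to 52.7 in replicate 2 and from 58.2 to 87.3 in replicate 3. For the listed 0 both bounds are also 0, which sets no limit without counts, so no fold is given.

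spp-9 also read 0 in DCL289. A reporter of spp-9 is repressed by DBL-1, a TGF-beta family ligand that sets body size and immune genes. spp-9 lies on X at 11487788 to 11488178 and was at 3.48, 6.31 and 11.3 scaled FPKM in DCL33, far below spp-12. The authors' interval in DCL33 replicate 1 reached down to 0, and in replicates 2 and 3 it started at 2.38 and 3.13 deposited FPKM. Its spread in DCL33 was wide, with a coefficient of variation of 56.4%.

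**Figure D1:**
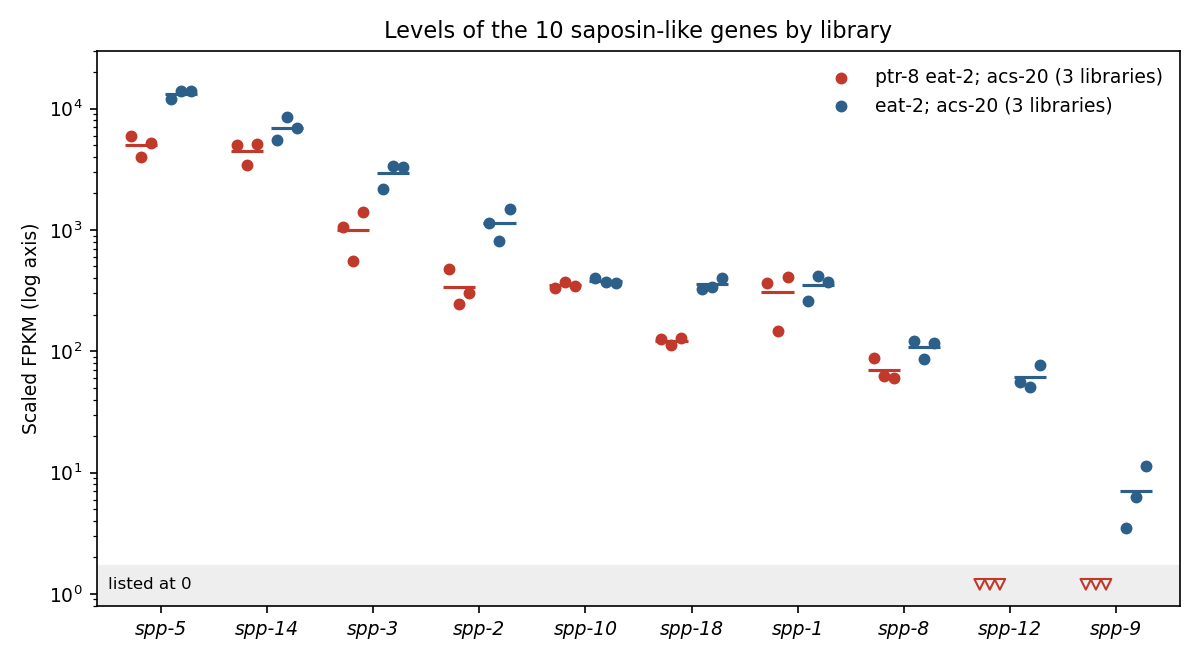
Scaled FPKM (log axis) of the 10 saposin-like genes, ordered by mean level in eat-2; acs-20 (DCL33), with 1 point per library, ptr-8 eat-2; acs-20 (DCL289) left of eat-2; acs-20, bars at the mean of 3 libraries, and open triangles for libraries listed at 0. spp-12 and spp-9 sit at 0 in DCL289, spp-5, spp-14, spp-3, spp-2 and spp-18 separate by strain above 0, and spp-10, spp-1 and spp-8 overlap.

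Among the genes with other or no role given here, spp-18 was the most evenly separated. It lies on chromosome IV at 9593693 to 9594425 and was at 125, 112 and 129 scaled FPKM in DCL289, against 326, 336 and 404 in DCL33. The DCL289 mean was 34.4% of the DCL33 mean, and the coefficient of variation was 7.54% in DCL289 and 11.9% in DCL33.

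spp-2, the gene next to spp-3 on X (7315995 to 7316773), was at 473, 246 and 301 scaled FPKM in DCL289, against 1132, 813 and 1488 in DCL33. Its DCL289 mean was 29.7% of the DCL33 mean, with no overlap. spp-14, on X at 7725955 to 7726388, was second in level. It was at 4998, 3421 and 5125 scaled FPKM in DCL289, against 5467, 8472 and 6897 in DCL33. Its groups were separate only by the step between 5125 in DCL289 and 5467 in DCL33.

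spp-10, the worm gene closest to vertebrate prosaposin, is the longest of the 10 by exons, with up to 11 in its transcripts (chromosome IV, 8477182 to 8480639). It was at 335, 373 and 347 scaled FPKM in DCL289, against 404, 372 and 364 in DCL33, a log2 difference of -0.11 (SE 0.09). It was also the steadiest gene of the list, with a coefficient of variation of 5.57% in DCL289 and 5.55% in DCL33. On the FPKM as deposited, without scaling, the difference was 0.00030. spp-8 lies 1024 bp downstream of it on the same strand (8481664 to 8483710). It was at 88.2, 62.4 and 60.2 scaled FPKM in DCL289, against 122.3, 85.9 and 116 in DCL33, and the groups overlapped by a small margin, 88.2 in DCL289 over 85.9 in DCL33.

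The fit across all genes gives the background for these values. limma on log2(scaled FPKM + 1), with Benjamini-Hochberg adjustment over all 15204 genes tested and a threshold of 0.05, called 2.4% of genes in either direction, 2.05% lower (312 genes) and 0.349% higher (53 genes) in DCL289. On the FPKM as deposited, 178 genes were called lower and 66 higher. All 10 listed genes passed the filter on level, spp-9 and spp-12 only through DCL33. Of the 10, spp-5, spp-9, spp-12 and spp-18 were called lower and none was called higher. Because this contrast chose the genes, nothing is read from the 4 against the 2.05%. Of the 10, 7 had all DCL289 libraries below all DCL33 libraries, a pattern that 14.3% of all tested genes showed. The median log2 difference was -1.47 over the 10 and 0.0029 over all genes tested. Nothing is read from the 7 or from this median either, because the same contrast chose the genes. spp-9 and spp-12 are among the 7, and the filter fixed their separation.

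Leaving out 1 library repeats the contrast that chose the genes, so it tells which libraries a call needs and gives no further support. spp-18 stayed past the threshold in the 6 such limma fits (highest adjusted p 0.0370). For spp-12 the 3 fits that tested it leave out a DCL289 library at 0, so its difference could not change, and without a DCL33 library it misses the filter. spp-5 missed the threshold without DCL289 replicate 1 (limma adjusted p = 0.0655) or 3 (0.107) and without DCL33 replicate 2 (0.101) or 3 (0.132). spp-9 missed it without DCL289 replicate 1 (0.0766), 2 (0.0591) or 3 (0.0898) and was not tested without a DCL33 library. spp-2 and spp-3 were not called with all libraries (adjusted p = 0.0502 and 0.0916) and were called on the FPKM as deposited (0.00955 and 0.00608).

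The order of levels was mostly the same in both strains. In DCL289 it ran spp-5, spp-14, spp-3, spp-10, spp-2, spp-1, spp-18 and spp-8, with spp-9 and spp-12 at 0. In DCL33 it ran spp-5, spp-14, spp-3, spp-2, spp-10, spp-18, spp-1, spp-8, spp-12 and spp-9. The ranges of spp-5 and spp-14 overlapped in DCL289 (4006 to 5913 and 3421 to 5125 scaled FPKM), and in DCL33 they did not (12105 to 13904 and 5467 to 8472). spp-10, spp-2 and spp-1 overlapped as neighbours in DCL289, and spp-10, spp-18 and spp-1 did in DCL33.

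Ratios between genes of 1 library do not depend on the scaling. spp-5 over spp-14 was 1.18, 1.17 and 1.012 in DCL289, against 2.21, 1.64 and 2.02 in DCL33. spp-18 over spp-10 was 0.375, 0.299 and 0.372 in DCL289, against 0.806, 0.903 and 1.11 in DCL33. In both ratios the strains did not overlap, so in these libraries the genes of each pair differed between the strains to unequal extents. The strain contrast chose these genes, so the ratios describe that choice. spp-3 over spp-5 was 0.177, 0.138 and 0.269 in DCL289, against 0.180, 0.243 and 0.236 in DCL33, and here the strains overlapped.

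The 10 genes made up 84.9%, 85.0% and 86.5% of the summed FPKM of the 23 spp genes in DCL289, and 85.6%, 85.8% and 83.4% in DCL33. The summed scaled FPKM of the 23 was 15725, 10499 and 14968 in DCL289, against 25761, 32419 and 32296 in DCL33. spp-5 took 37.6%, 38.2% and 34.7% of that sum in DCL289 and 47.0%, 42.8% and 43.1% in DCL33. spp-14 took 31.8%, 32.6% and 34.2% in DCL289 and 21.2%, 26.1% and 21.4% in DCL33. Shares of 1 sum are bound to each other, so a lower share of spp-5 leaves larger shares to the rest.

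**Figure D2:**
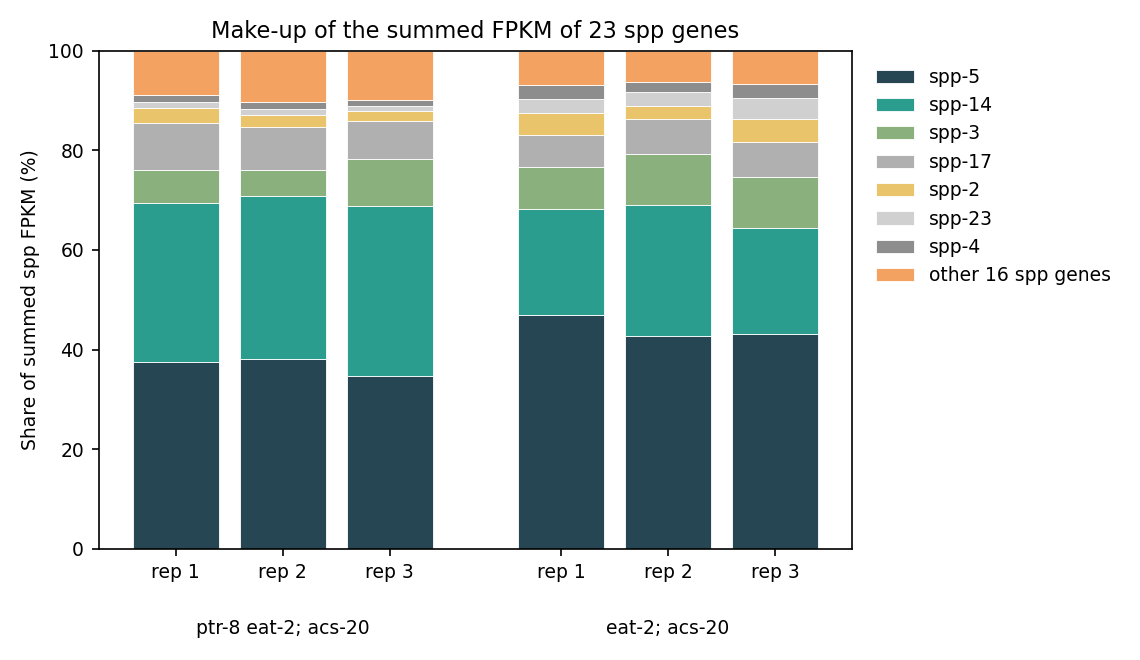
Share (%) of the summed FPKM of 23 spp genes taken by each of 7 genes and by the other 16 together, 1 bar per library, ptr-8 eat-2; acs-20 (DCL289) left and eat-2; acs-20 (DCL33) right. spp-5 and spp-14 are the largest parts in every library, spp-5 at 34.7% to 38.2% in DCL289 and 42.8% to 47.0% in DCL33.

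Position was not used to choose the genes. Of the 23 spp genes, 10 lie on X, and 5 of these form a run of 5502 bp, in the order spp-3, spp-2, spp-6, spp-4 and spp-5. In this run spp-6 is on the plus strand and the other 4 are on the minus strand. spp-3, spp-2 and spp-5 were chosen by their levels in these libraries, so their lower levels in DCL289 repeat that choice. Only spp-4 and spp-6 of the run were not chosen so. spp-4, which is not on the list of 10, was at 205, 144 and 174 scaled FPKM in DCL289, against 755, 642 and 920 in DCL33. It fell in limma (log2 fold change -2.14, SE 0.18, adjusted p = 0.00627) and was called with each library left out in turn. spp-6 was low and overlapped between strains, at 3.18, 0 and 5.71 in DCL289, against 2.93, 13.8 and 18.9 in DCL33 (limma adjusted p = 0.312). How the authors' counting divided reads among these neighbours was not tested.

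The loci beside the run gave mixed values. On the left, the histone gene his-40 was at 3.81, 5.64 and 5.35 scaled FPKM in DCL289, against 11.7, 16.5 and 16.8 in DCL33. It was called lower (limma adjusted p = 0.0247), but with 1 library left out it was called only without DCL33 replicate 1 (highest adjusted p 0.115, without DCL33 replicate 3). On the right, T08A9.13 was at 4.78, 3.95 and 5.02 in DCL289, against 8.09, 9.51 and 17.99 in DCL33, and was not called (limma adjusted p = 0.113). sng-1, a synaptic vesicle gene further right, was at 6.14, 6.96 and 6.05 in DCL289, against 5.83, 6.89 and 6.68 in DCL33, with overlap. T08A9.6, between his-40 and spp-3, was under 1 scaled FPKM throughout and higher in DCL289, at 0.629, 0.803 and 0.759, against 0.401, 0.175 and 0.180 in DCL33. The loci beside the run were looked up after its values had been seen.

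**Figure D3:**
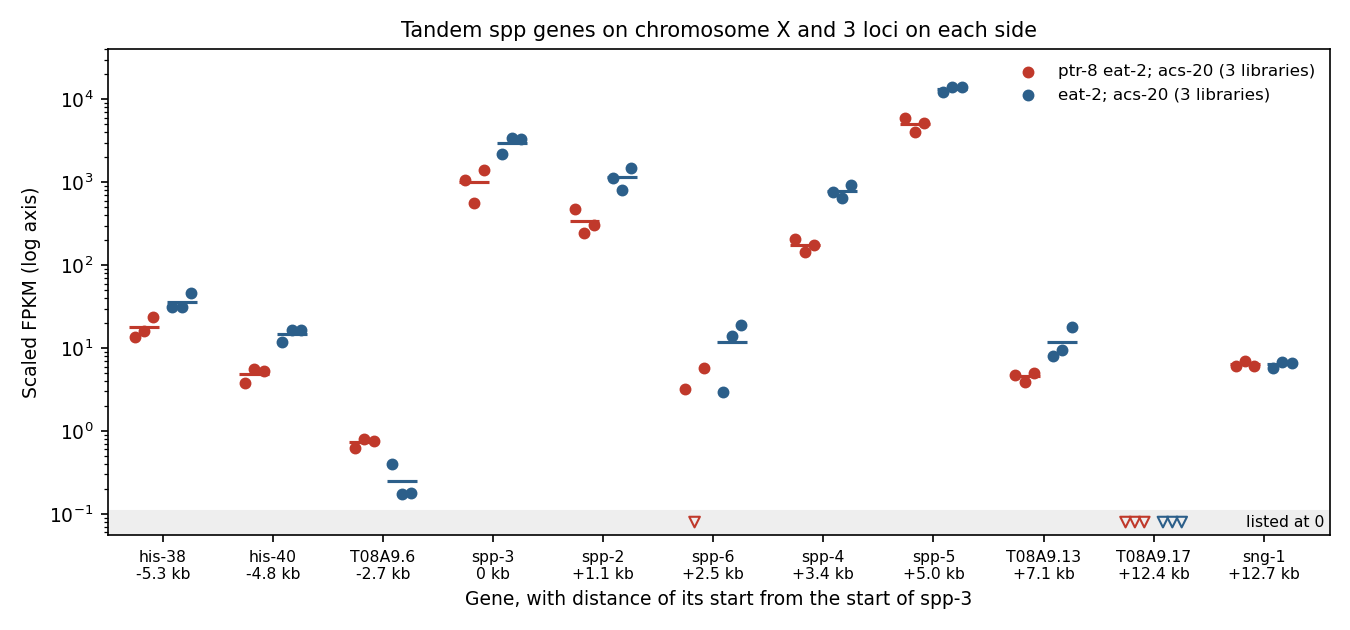
Scaled FPKM (log axis) of the 5 tandem spp genes on X and of 3 listed loci on each side, by order along the chromosome with the distance of each start from that of spp-3, 1 point per library, ptr-8 eat-2; acs-20 (DCL289) left of eat-2; acs-20 (DCL33), bars at means of genes above 0 in all 3 libraries, open triangles at 0. spp-3, spp-2, spp-4 and spp-5 separate by strain, and spp-6 overlaps and has 1 DCL289 library at 0. Beside the run, his-38, his-40 and T08A9.13 are lower in DCL289 without overlap, T08A9.6 is higher without overlap, and sng-1 overlaps.

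The 2 genes of the list at 0 in DCL289 were then set beside their neighbours. spp-12 lies 411 bp from srsx-19, which was at 0.252, 0.266 and 0.559 scaled FPKM in DCL289, against 0.766, 0.588 and 0.884 in DCL33. On the other side, at 381 bp, the lipid-binding protein gene lbp-8 was at 2.87, 5.36 and 3.92 in DCL289, against 10.4, 11.3 and 3.92 in DCL33. sptl-3, a subunit of serine palmitoyltransferase, followed at 43.3, 44.5 and 49.5 in DCL289, against 38.4, 53.3 and 45.3 in DCL33. The 6 neighbours of spp-12 were above 0 in all libraries of both strains. Of them, srsx-19 and T22G5.3 were lower in DCL289 without overlap, and the rest overlapped. Over all genes tested, 14.3% were lower without overlap.

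spp-9 has another spp gene as its neighbour, 1951 bp to the right. That gene, spp-21, is listed at 0 in the 3 DCL289 libraries as well, against 1.98, 2.45 and 2.22 scaled FPKM in DCL33. The authors' interval reaches 0 for spp-21 in each DCL33 library, so this level rests on very few fragments. lin-14, on the left of spp-9, was at 14.9, 17.7 and 18.9 in DCL289, against 16.1, 17.6 and 14.9 in DCL33. T25C12.3, on the right of spp-21, was at 87.0, 100.3 and 99.0 in DCL289, against 103, 139 and 123 in DCL33. It was lower without overlap, as were 14.3% of all genes tested, and was not called (limma adjusted p = 0.229). Left of lin-14, T25C12.9 was at 0 in all libraries, and T25C12.7 was above 0 only in DCL289 replicate 1 (0.624).

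**Figure D4:**
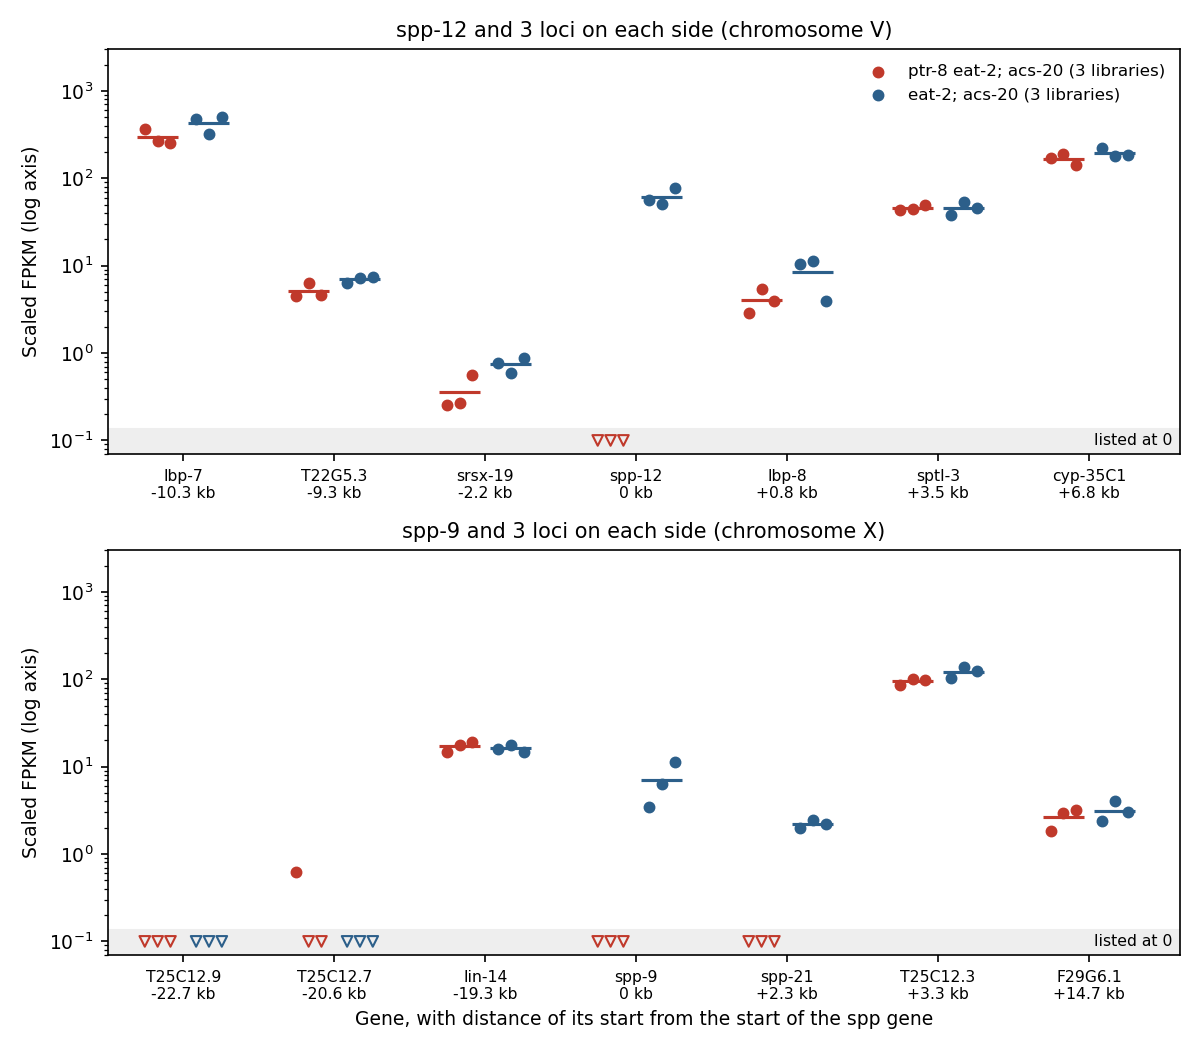
Scaled FPKM (log axis) of spp-12 (upper panel) and spp-9 (lower panel) with 3 listed loci on each side and the distance of each start, 1 point per library, ptr-8 eat-2; acs-20 (DCL289) left of eat-2; acs-20 (DCL33), bars at means of genes above 0 in all 3 libraries, open triangles at 0. In DCL289 spp-12 is at 0 between neighbours above 0, and spp-9 and spp-21 are at 0 side by side between lin-14 and T25C12.3.

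A level of at least 1 deposited FPKM in the 3 DCL33 libraries together with 0 in the 3 DCL289 libraries was met by 4 of 14336 loci (0.0279%), and 3 of the 4 are spp-12, spp-9 and spp-21. This cutoff was set after the values were seen, and the first 2 were picked for this very pattern. A listed 0 is not always a low level in these files: of 4921 loci that reached 50 deposited FPKM in any library, 63 are listed at 0 in another, 27 of them in libraries of both strains. C54G6.8, beside spp-17, is listed at 0, 251 and 193 deposited FPKM in DCL289 and at 265, 0 and 0 in DCL33. spp-12 is at 0 in every library of DCL289 and in none of DCL33. Whether the gene is not transcribed in DCL289, is missing there or was given no estimate cannot be told apart from these values.

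The other 13 spp genes of the files were not on the list. Of these, 11 were tested. spp-4 and spp-23 were called lower and none higher, where over all genes 2.05% were called lower and 0.349% higher. spp-21 was also called lower but is not set against these shares. It passed the filter only through DCL33 and is listed at 0 in DCL289, so its direction was fixed by the filter. spp-23, on chromosome I beside spp-17, was at 202, 140 and 157 scaled FPKM in DCL289, against 718, 959 and 1360 in DCL33 (log2 fold change -2.57, SE 0.26, limma adjusted p = 0.0101). It missed the threshold without DCL289 replicate 3 (0.0630) or DCL33 replicate 2 (0.0595). spp-17 itself was at 1487, 911 and 1142 in DCL289, against 1643, 2263 and 2301 in DCL33, and was not called (limma adjusted p = 0.134). The ratio of spp-23 to spp-17 was 0.136, 0.153 and 0.138 in DCL289 and 0.437, 0.424 and 0.591 in DCL33.

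spp-7, spp-13, spp-15, spp-16, spp-19 and spp-22 were tested and not called, with log2 differences from -0.73 (spp-16) to 0.19 (spp-7). Of these, spp-13, spp-15, spp-16 and spp-22, like spp-17, were lower in DCL289 without overlap, and spp-7 and spp-19 overlapped. spp-16 was separate only by the step between 79.0 scaled FPKM in DCL289 and 82.9 in DCL33. It lies over F32D8.7 on the other strand, listed at 24.2 to 35.5 deposited FPKM over the libraries. With no statement on strand, the reads of F32D8.7 and spp-16 cannot be told apart. Among all genes tested, 14.3% were lower and 13.3% higher without overlap. Of the tested spp genes of the files outside the list, leaving aside spp-21, spp-7 alone had a higher mean in DCL289. It was at 4.37, 4.98 and 4.29 scaled FPKM there, against 4.31, 3.29 and 4.03 in DCL33. The listed genes are not counted here because this contrast chose them. spp-11 and spp-20 stayed below the filter, under 1 scaled FPKM in every library.

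A further 7 loci carry an spp name in the current name table and a sequence name in the files. Of these 4 were tested, and 1 was called lower and none higher, where over all genes 2.05% were called lower and 0.349% higher. The called gene, spp-25, was at 41.6, 28.8 and 49.0 scaled FPKM in DCL289, against 96.8, 107 and 167 in DCL33 (limma adjusted p = 0.0462). With 1 library left out it was called only without DCL33 replicate 1 (highest adjusted p 0.131, without DCL289 replicate 1), and without a filter it was not called (0.0668). spp-24, spp-28 and spp-31 were not called, and spp-26, spp-29 and spp-30 missed the filter.

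**Figure D5:**
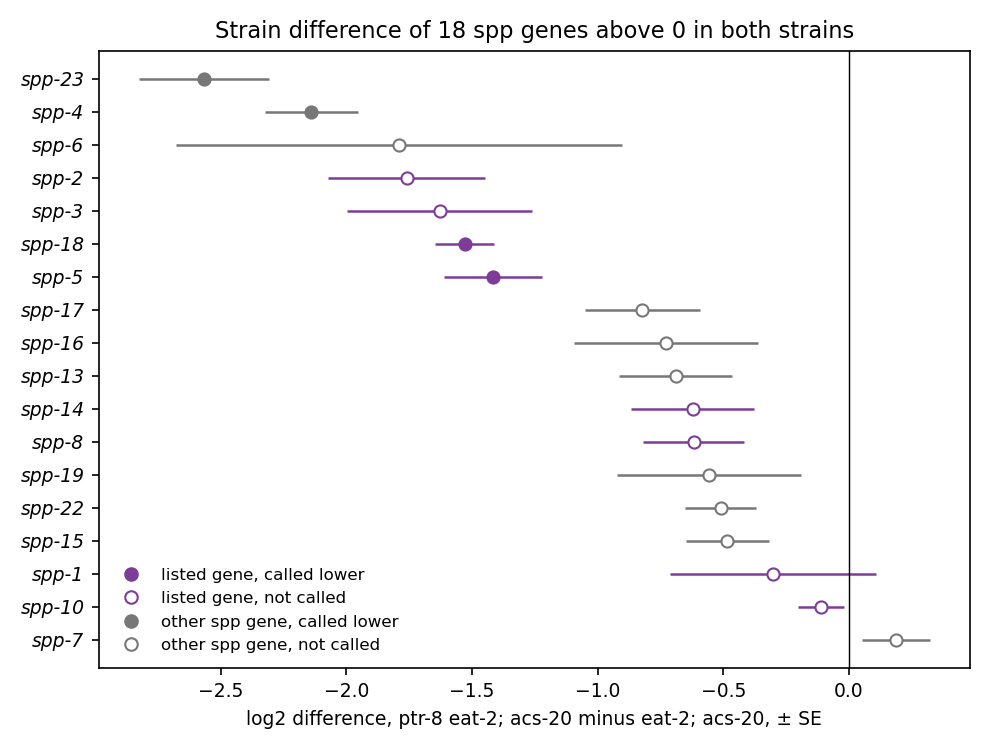
Log2 difference (ptr-8 eat-2; acs-20, DCL289, minus eat-2; acs-20, DCL33) with standard error for the 18 tested spp genes above 0 in both strains, from limma on log2(scaled FPKM + 1), with filled points for genes called lower. spp-23 and spp-4 lie furthest from 0, spp-18 and spp-5 are the called genes of the 10 that are shown, and spp-7 is the 1 gene to the right of 0. The listed genes were chosen by this contrast, so their side of 0 repeats that choice.

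Saposins work with lysosomal hydrolases, and 13 worm genes for sphingolipid hydrolases were tested beside them. gba-1 and gba-4, both related to human glucocerebrosidase, were called lower and none higher, where over all genes 2.05% were called lower and 0.349% higher. gba-1 was at 27.4, 25.7 and 25.7 scaled FPKM in DCL289, against 61.6, 60.2 and 67.1 in DCL33 (log2 fold change -1.23, SE 0.08, limma adjusted p = 0.00447), and was called with each library left out in turn. gba-4 was at 20.1, 15.6 and 18.99 in DCL289, against 84.7, 49.3 and 92.3 in DCL33 (log2 fold change -1.95, SE 0.25, limma adjusted p = 0.0213). It missed the threshold without DCL289 replicate 1 (0.0747), 2 (0.0643) or 3 (0.0923) or DCL33 replicate 3 (0.0947). The median log2 difference of the 13 was -0.11. Among the 11 not called, asm-2, asah-1, asah-2, gana-1 and hex-1 were lower in DCL289 without overlap, gba-3, bgal-1 and bgal-2 were higher without overlap, and asm-1, asm-3 and gba-2 overlapped. Over all genes tested, 14.3% were lower and 13.3% higher without overlap.

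The defensin-like abf peptides, another class of worm antimicrobial proteins, gave no call by limma among the 4 of 6 tested, and abf-3 was at 0 in all libraries. The median log2 difference of the 4 was -0.0092. Of these, abf-2 was lower in DCL289 without overlap, at 9.80, 3.26 and 12.8 scaled FPKM, against 18.97, 18.1 and 23.2 in DCL33. The other 3 tested abf genes overlapped. None of 11 regulators of intestinal and immune genes was called by limma, and their median was -0.15. Of the 11, elt-7, hlh-30, sma-3 and sma-4 were lower in DCL289 without overlap, daf-16 was higher without overlap, and 6 overlapped. The shares over all genes tested were 14.3% lower and 13.3% higher without overlap. Only 2.4% of all genes tested were called in either direction, so no call in lists this short is near that share. The ligand gene dbl-1 was at 8.42, 8.06 and 7.11 scaled FPKM in DCL289, against 7.70, 7.99 and 8.33 in DCL33. daf-16 was at 42.7, 42.6 and 41.3 in DCL289, against 37.1, 38.3 and 39.1 in DCL33 (limma adjusted p = 0.335).

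Markers of the intestine, of neurons and of other tissues were present in both strains. None of 6 intestinal markers was called by limma, and their summed level was 1423 to 1608 scaled FPKM in DCL289 and 1500 to 1790 in DCL33. Of the 6, ges-1 was higher in DCL289 without overlap, vha-6 was lower without overlap, and 4 overlapped. Among all genes tested, 13.3% were higher and 14.3% lower without overlap, and 2.4% were called in either direction. No call in marker lists this short is near that share. For 4 neuronal markers the sum was 358 to 449 in DCL289 and 410 to 455 in DCL33, and for 4 of pharyngeal muscle it was 36.4 to 56.4 in DCL289 and 29.1 to 57.0 in DCL33. For 4 pharyngeal gland markers the sum was 34.2 to 53.1 in DCL289 and 36.3 to 56.7 in DCL33. For 3 of coelomocytes it was 16.7 to 17.2 in DCL289 and 14.5 to 19.3 in DCL33, and for 3 of body wall muscle 581 to 691 in DCL289 and 585 to 655 in DCL33. No marker of these lists was at 0 in all libraries, and none of those tested was called. ceh-22 of pharyngeal muscle and hlh-6 of the glands missed the filter and were not tested. The summed level of 4 collagens of the adult cuticle did not overlap between strains, at 1771 to 2154 in DCL289 and 1399 to 1603 in DCL33, and none of the 4 was called. The stage marker col-19 was at 737, 591 and 849 in DCL289, against 425, 217 and 74.3 in DCL33. col-7 and col-62 had higher means in DCL289 and overlapped, and col-63 had a lower mean in DCL289 and overlapped (log2 difference -0.23). DCL33 replicate 1 was the highest of its strain in col-19, col-7 and col-62 and the lowest in col-63, and it was the lowest of the 3 in 6 of the 10 spp genes (spp-1, spp-3, spp-5, spp-9, spp-14 and spp-18). DCL289 replicate 2 was the lowest of its strain in col-19, col-7 and col-62 but not in col-63, and it was the lowest in 6 of the 8 listed genes above 0 there (spp-1, spp-2, spp-3, spp-5, spp-14 and spp-18). Which share of all genes was lowest in either library was not computed, so nothing is read from these counts. The part of developmental stage in the spp levels was not tested.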

How the data were processed

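Each library came with 1 deposited table of genes that gives, per the file headers, an FPKM, its lower and upper bound and a status word, as Cufflinks tables do. FastQC 0.11.5, TopHat2, HTSeq and DESeq2 appear in the submitters' processing notes, with no roles. The genome build is not given in the sources used here. Coordinates are those of the files with the start raised by 1. Of 46245 loci, 45990 matched the Ensembl annotation of WBcel235 by identifier, all on the same chromosome and 44947 within 1000 bp.

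FPKM were divided by a trimmed mean of ratios per library (30% of ratios and 5% of levels trimmed). Loci under 200 bp (22932) and 10 marked FAIL in any library, none an spp gene, were left out, and genes needed a scaled FPKM of 1 in 3 libraries. limma 3.58.1 (R 4.3.3, intensity trend) was fitted to log2(scaled FPKM + 1) with strain as the only term and all 6 libraries, checked on simulated data. Fold changes are DCL289 minus DCL33 on this scale and understate changes of low genes. The interval half-width was read as 2 standard errors, and genes with 1 transcript and at least 30 implied fragments in each library gave its median. The 10 genes, the lists and the rules for named genes were chosen with earlier results of these data known. Named were the 10 genes, other spp genes, the 3 listed loci on each side of a gene at 0 in a strain, called members of the lists and ptr-8. his-38, his-40, T08A9.6, T08A9.13, T08A9.17, sng-1, C54G6.8, spp-25, and members of the lists not called, other than col-19, were named after their values were seen. Alternatives were median-of-ratios, upper-quartile and no scaling, no filter or a filter on the mean, leaving out single libraries, a replicate block and a pseudocount of 0.1.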

Additional observations from a re-analysis of the deposited data

How the results depend on the processing

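The number of listed spp genes called was 4, and it stayed within 1.5 times of that under the other scalings, filters and pseudocount, with 6 on the FPKM as deposited and 3 without a filter. FPKM as deposited moved the median log2 difference of all genes to 0.10, so differences read higher by about that much. With each library left out, 1 to 3 of the listed genes were called, partly because spp-9 and spp-12 miss the filter without a DCL33 library. For all genes the number called was 365, with 63 to 689 when 1 library was left out. The deviations of same-numbered libraries correlated at 0.25, 0.047 and 0.034 across genes, and those of differently numbered libraries at -0.20 to 0.15. With 3 libraries per strain, these values cannot settle whether shared replicate numbers pair the libraries. With a replicate block 168 genes and 2 listed spp genes, spp-12 and spp-18, were called, and spp-23 was not (limma adjusted p = 0.0542). The direction of spp-1 turned without DCL289 replicate 2 (range -0.57 to 0.16 over single libraries left out) and that of spp-10 on the FPKM as deposited (0.00030), neither called in any fit run. spp-5 was not called without a filter (limma adjusted p = 0.0688). Depth is not stated in the files, and the intervals of spp-9 and spp-21 reach 0 in 1 and 3 DCL33 libraries.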
